A study of Homo sapiens with 30 samples.

Results

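The hormone response of T47D cells labelled ICRF was set against the hormone response of T47D cells that had received a control siRNA, gene by gene. T47D is an established human luminal breast cancer line that is rich in progesterone receptor. The difference of responses was the log2 fold change of progestin over untreated in the ICRF libraries minus the same fold change in the siControl libraries, so a positive value means that a gene responded more upward, or less downward, with ICRF. Groups were taken from the sample titles. The comparison used 8 of the 12 RNA-seq libraries of a series of 30 samples, in 4 groups of 2: ICRF progestin, ICRF untreated, siControl progestin and siControl untreated. The other 4 came from T47D cells with an siRNA against CEBPA (siCEBPA), 2 with progestin and 2 untreated. They added to the estimate of the spread between libraries and were used to sort genes by hormone response. The series' design text names the effect of inhibiting topoisomerase II alpha on hormone-dependent gene regulation as a question of the study. The hormone was the synthetic progestin R5020 at 10 nM, although the titles say progesterone. The siControl libraries came from cells with a short arrest of 4 hours before hormone, with the time label T0 when untreated and T360 with progestin, without a unit. The siCEBPA libraries had the same arrest and time labels. The ICRF titles name no siRNA, no arrest and no time, and the compound and its dose are not given in the sources used here. ICRF, the siRNA, the arrest and the time therefore cannot be told apart in any value below, and neither can an experiment of its own. All cells were of 1 line at passages 18 to 20. The labels do not say whether the 2 libraries of a group came from separate cultures, so a p-value here reflects the variation from one library to the next, which could be of technical origin.

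The progesterone receptor is a transcription factor that progestin activates. It binds DNA together with factors that open chromatin, and in breast cancer cells it drives growth at first and restrains it later. DNA topoisomerase II passes one DNA duplex through another and so removes the twists and tangles that transcription and replication leave behind. Its alpha form, TOP2A, is made mainly in dividing cells, and its beta form, TOP2B, in nearly all cells. Compounds named ICRF are usually inhibitors that hold the enzyme closed on DNA without leaving the double-strand breaks that topoisomerase poisons leave.

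The promoters of 4 genes are shown first, because they belong to 4 gene groups whose members mostly differed in 1 direction. Each is the member of its group with a match to the group's known motif and the smallest p in the difference. The sequences are RefSeq's for GRCh38.p14, from 250 bases before the start of the gene to 50 bases after it, and capitals mark the match on either strand. Most genes of the unfolded protein response had lower responses with ICRF. PDIA6 (chr2:10812736-10813035, minus strand), a disulfide isomerase of the endoplasmic reticulum, carries the endoplasmic reticulum stress element, searched as CCAAT and CCACG with any 9 bases between them.
PDIA6: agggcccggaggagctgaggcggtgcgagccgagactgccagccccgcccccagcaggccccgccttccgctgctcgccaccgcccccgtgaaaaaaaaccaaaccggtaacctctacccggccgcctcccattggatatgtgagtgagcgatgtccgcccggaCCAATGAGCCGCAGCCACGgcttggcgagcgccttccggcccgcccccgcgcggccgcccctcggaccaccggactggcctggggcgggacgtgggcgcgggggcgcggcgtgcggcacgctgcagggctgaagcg
Most ribosome biogenesis genes also had lower responses. MRTO4 (chr1:19251555-19251854, plus strand), a factor for assembly of the large ribosomal subunit, carries the E-box CACGTG, which MYC binds.
MRTO4: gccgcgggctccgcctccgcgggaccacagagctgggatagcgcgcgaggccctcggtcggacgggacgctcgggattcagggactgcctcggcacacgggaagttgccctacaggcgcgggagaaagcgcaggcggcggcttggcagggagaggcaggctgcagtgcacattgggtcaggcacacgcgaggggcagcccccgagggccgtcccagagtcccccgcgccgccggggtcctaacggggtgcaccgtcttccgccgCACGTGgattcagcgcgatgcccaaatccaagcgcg
Most genes of the amino acid stress response had higher responses. GARS1 (chr7:30594628-30594927, plus strand), glycyl-tRNA synthetase, carries the amino acid response element TGATGNAA, the kind of site that ATF4 binds.
GARS1: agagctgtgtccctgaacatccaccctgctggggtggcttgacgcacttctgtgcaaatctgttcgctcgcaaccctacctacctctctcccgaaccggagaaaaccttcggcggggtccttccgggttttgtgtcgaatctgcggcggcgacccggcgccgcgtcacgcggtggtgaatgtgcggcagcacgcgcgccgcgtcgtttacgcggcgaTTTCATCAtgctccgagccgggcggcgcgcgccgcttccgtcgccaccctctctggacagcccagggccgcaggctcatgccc
Most mitotic genes had higher responses as well. CDK1 (chr10:60778081-60778380, plus strand), the kinase that starts mitosis, carries TTTGAA, the letters of the cell cycle homology region.
CDK1: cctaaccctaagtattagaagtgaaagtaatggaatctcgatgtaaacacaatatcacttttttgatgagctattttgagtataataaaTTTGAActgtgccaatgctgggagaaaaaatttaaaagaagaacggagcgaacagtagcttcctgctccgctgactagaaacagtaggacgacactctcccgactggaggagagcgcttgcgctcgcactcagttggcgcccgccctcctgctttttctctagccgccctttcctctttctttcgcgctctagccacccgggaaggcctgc
The stress element was found in 7 of the 19 unfolded protein response genes tested that had a promoter sequence, against 0.0769% of all 35116 promoter windows. The E-box was found in 6 of 17 ribosome genes against 7.26% of all windows, the amino acid response element in 9 of 20 against 3.62%, and TTTGAA in 18 of 26 mitotic genes against 15.2%. No printed match overlapped a match to another of the 4 motifs. Of the 7 genes with the stress element 5 had a lower response with ICRF and 1 a higher one, and of the 6 ribosome genes with an E-box 6 had a lower one. Of the 9 amino acid stress genes with the element 6 had a higher response, as did 12 of the 18 mitotic genes with TTTGAA, and the others were not called. Over each whole list tested, 14 of 19 unfolded protein response, 21 of 23 ribosome, 13 of 23 amino acid stress and 23 of 32 mitotic genes differed in that direction, and of all genes 24% were lower and 24.9% higher. The windows covered more than the 19003 genes tested, and lists and motifs were chosen with earlier results of these data known. The shares with a motif therefore describe the lists and test nothing about the difference of responses. A match of letters describes the sequence and shows no binding.

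Library totals were 103156070 to 108066269 counts with ICRF and 62666783 to 148624099 in siControl, where untreated replicate 2 was the deepest. Mitochondrially encoded genes took 2.81% to 3.44% of counts with ICRF and 3.76% to 4.96% in siControl. Markers of luminal epithelium were high throughout. Their summed level was 5052 to 5279 CPM (counts scaled to a common library size) in ICRF progestin against 10662 to 10813 CPM in ICRF untreated libraries. It was 8189 to 8840 CPM in siControl progestin against 8905 to 9277 CPM in siControl untreated libraries. The 4 basal markers summed to at most 3.27 CPM. Of 13 fibroblast, endothelial and blood markers 11 were under 1 CPM in every library, and their sum, mostly COL1A1, was 29.2 to 32.9 CPM with ICRF and 52.8 to 72.8 CPM in siControl. The part of these shifts in the results was not tested. In bulk RNA, fewer cells of a kind and less RNA per cell cannot be told apart.

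The hormone changed about as many genes with ICRF as in siControl, and the size or direction of the change differed for 9293 genes (48.9% of those tested). Of 19003 genes tested, 5800 rose (30.5%) and 5080 fell (26.7%) with progestin in ICRF libraries, and 5612 rose (29.5%) and 5342 fell (28.1%) in siControl libraries (edgeR's quasi-likelihood test, Benjamini-Hochberg adjusted p under 0.05). The difference of responses was higher with ICRF for 4729 genes (24.9%) and lower for 4564 genes (24%). It passed the threshold and was at least 2-fold for 2534 genes (13.3%). The median difference over all genes was 0.02 on the log2 scale, and its 5th and 95th percentiles were -1.35 and 1.54. With library totals alone as the scale that median was 0.17, and 65.2% of the calls were then higher, against 50.9% with TMM factors. On that scale 3938 genes rose and 7626 fell in siControl, and with upper quartile factors 4322 rose and 7011 fell. Values of single genes below are relative to the TMM scale.

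Because the difference is built from both responses, sorting its genes by those responses describes what it is made of and tests nothing. Of the 4564 genes with a lower difference, 3151 (69%) rose in siControl. Among those 3151, progestin with ICRF raised 1010, made no called change in 1154 and lowered 987. Another 911 genes fell with ICRF and were not called in siControl, and 447 fell in both. Of the 4729 genes with a higher difference, 2722 (57.6%) fell in siControl. With ICRF 561 of those fell, 1067 were not called and 1094 rose. Another 1214 rose with ICRF and were not called in siControl, and 709 rose in both. In all, 987 and 1094 genes were called in opposite directions in the 2 cell states. The median gap was larger in hormone-treated cells. For genes with a higher difference the median log2 ratio of ICRF to siControl was 0.60 with progestin and -0.12 untreated, and for genes with a lower difference -0.54 and 0.09. In these medians gaps of opposite sign offset each other. Taken gene by gene without the sign, the gap was larger with progestin in 67.1% of the higher and 68.2% of the lower genes, and not in the rest.

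**Figure D1:**
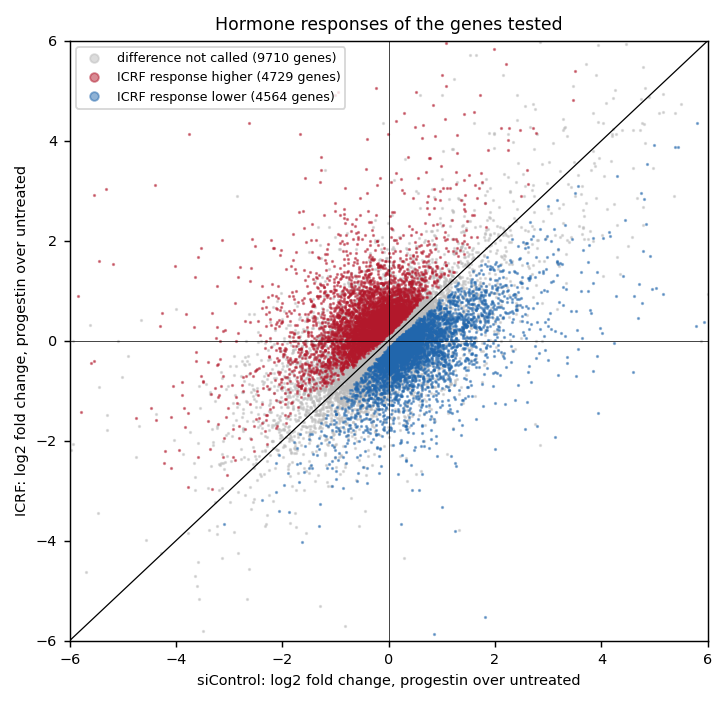
Log2 fold change of progestin over untreated in ICRF libraries (vertical axis) against that in siControl libraries (horizontal axis), 1 point for each of 19003 genes tested, of which 90 lie outside the axes. Red points are the 4729 genes with a higher response with ICRF, blue points the 4564 with a lower one and grey points genes not called; the black diagonal marks equal responses. Many red and blue points lie in the quadrants where the 2 responses have opposite signs.

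The 12 largest negative differences were in genes that progestin raised in siControl cells, and with ICRF the same hormone raised 3 of them, lowered 4 and made no called change in 5. EFNA3, which encodes the cell-surface ligand ephrin A3, had 10.6 and 11.5 CPM in ICRF progestin against 10.1 and 10.7 CPM in ICRF untreated libraries, and 116 and 112 CPM in siControl progestin against 11.3 and 11.6 CPM in siControl untreated libraries. Only the siControl groups stood apart, and the difference was -3.22 ± 0.089 (SE, log2, adjusted p = 3.69e-16). NES, the gene of the intermediate filament protein nestin, had the largest negative difference by the rule used, -4.29 ± 0.21 (adjusted p = 1.03e-12), with 1.31 and 1.34 CPM in ICRF progestin against 1.26 and 1.47 CPM in ICRF untreated libraries and 12.1 and 11.4 CPM in siControl progestin against 0.646 and 0.605 CPM in siControl untreated libraries. Its ICRF groups overlapped.

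TNS3 (chromosome 7 from 47275154 to 47582558, hg38), which spans 307 kb and encodes tensin 3 of focal adhesions, went in opposite directions. It had 118 and 112 CPM in ICRF progestin against 162 and 164 CPM in ICRF untreated libraries, and 407 and 414 CPM in siControl progestin against 66 and 65.8 CPM in siControl untreated libraries. It fell by 0.50 with ICRF and rose by 2.64 in siControl on the log2 scale, a difference of -3.14 ± 0.059 (adjusted p = 1.26e-18). S1PR5, a receptor for sphingosine 1-phosphate, TBX1, a T-box transcription factor, and NYNRIN also fell with ICRF and rose in siControl, with differences of -3.07, -3.12 and -3.31. KCNC1, a potassium channel, SLC25A18, a mitochondrial glutamate carrier, and ALPL, tissue-nonspecific alkaline phosphatase, rose in both, by 1.70, 1.13 and 0.88 with ICRF and by 4.92, 4.71 and 4.62 in siControl. The other 3 of the 12 were HPD, an enzyme of tyrosine breakdown, CRYAB, a small heat shock protein, and the antisense gene CCDC183-AS1, with differences of -4.23, -3.34 and -2.86. The counting used strand, so reads of an antisense gene and its partner were separated.

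Among the 12 largest positive differences, 11 were called in both cell states in opposite directions, rising with ICRF and falling in siControl. SLC7A11 (chromosome 4 from 138164097 to 138242349), the cystine transporter, had 92.8 and 91 CPM in ICRF progestin against 22 and 23 CPM in ICRF untreated libraries, and 22.5 and 25.2 CPM in siControl progestin against 36.8 and 38.9 CPM in siControl untreated libraries. Neither pair of groups overlapped, and the difference was 2.70 ± 0.098 (adjusted p = 2.04e-14). TENT5C, a poly(A) polymerase that stabilises messenger RNAs, had 26.9 and 28.6 CPM in ICRF progestin against 7.14 and 6.75 CPM in ICRF untreated libraries, and 10.1 and 10.3 CPM in siControl progestin against 19.3 and 18.6 CPM in siControl untreated libraries. AREG, the growth factor amphiregulin, rose to 19.6 and 20.3 CPM in ICRF progestin against 9.67 and 8.91 CPM in ICRF untreated libraries, and fell to 3.77 and 3.69 CPM in siControl progestin against 10.8 and 10.8 CPM in siControl untreated libraries. Its difference of 2.64 ± 0.12 (adjusted p = 1.9e-13) ran against most of the progestin-induced list to which it belongs.

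The remaining genes of this kind were ZNF365, SP4, a transcription factor of the SP family, PGM2L1, which makes glucose bisphosphate, ZC3H6, LIPT2-AS1, ULBP1, a stress ligand for natural killer cells, RASL11B, a small GTPase, and PTGER4, a receptor for prostaglandin E2. Their differences ran from 2.48 to 3.46. The exception was NUAK2, an AMPK-related kinase, which fell in both, with log2 responses of -0.50 with ICRF and -3.22 in siControl, and with 3.62 and 3.94 CPM in ICRF untreated and 16.8 and 18.9 CPM in siControl untreated libraries. Its untreated level was thus already lower with ICRF.

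**Figure D2:**
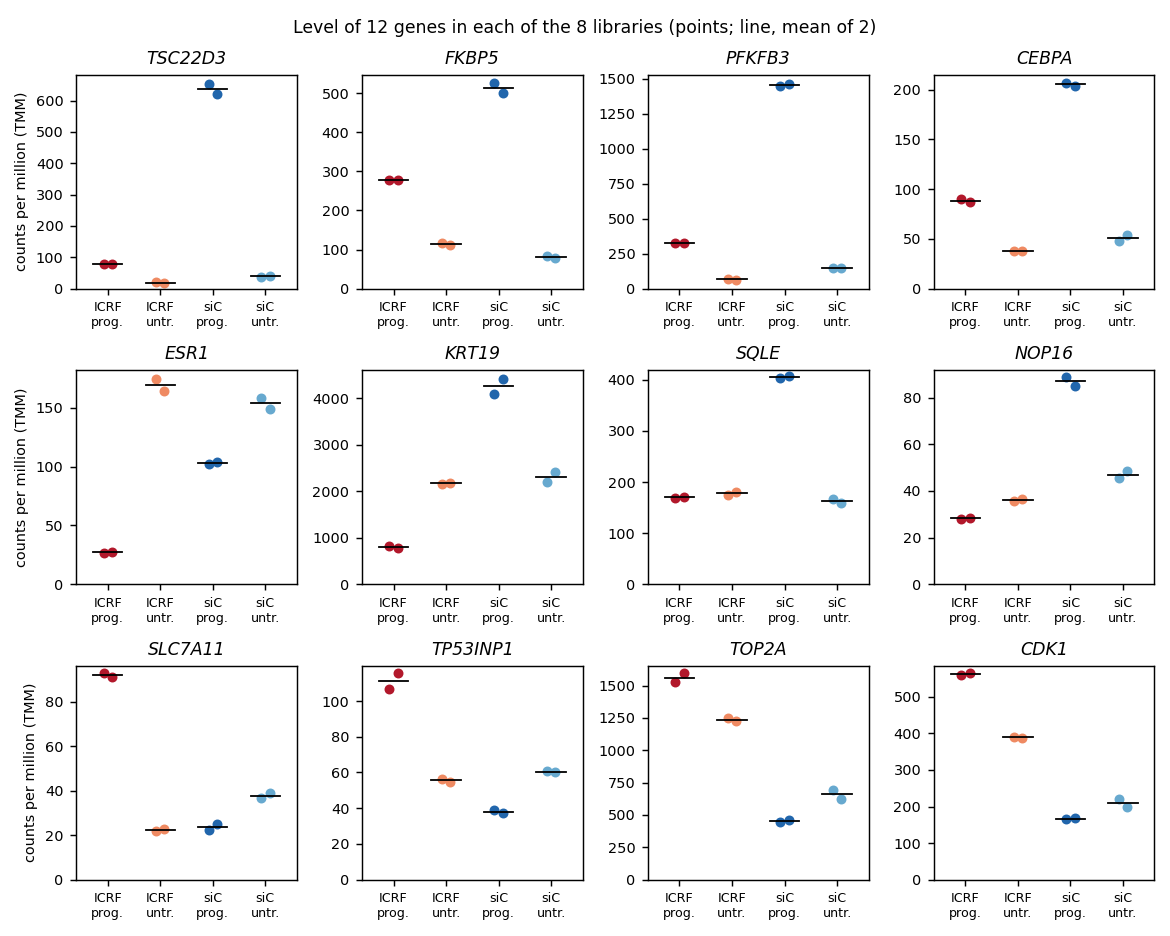
Level in CPM (TMM-scaled, linear axes from 0) of 12 genes in each library, with ICRF progestin, ICRF untreated, siControl progestin and siControl untreated from left to right; points are libraries and lines the mean of 2. TSC22D3, FKBP5, PFKFB3 and CEBPA rose in both cell states and more in siControl, ESR1 fell more with ICRF, and SLC7A11, TP53INP1, TOP2A and CDK1 rose with ICRF and fell in siControl.

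The receptors themselves differed in how they responded. PGR, the progesterone receptor gene, fell in both, to 250.5 and 257 CPM in ICRF progestin against 961 and 961 CPM in ICRF untreated libraries, and to 271 and 280.1 CPM in siControl progestin against 989 and 973 CPM in siControl untreated libraries. Its difference of -0.09 ± 0.047 missed the threshold (adjusted p = 0.123). ESR1, the oestrogen receptor gene (chromosome 6 from 151656691 to 152129619), had 26.9 and 27.2 CPM in ICRF progestin against 175 and 165 CPM in ICRF untreated libraries, and 102 and 104 CPM in siControl progestin against 159 and 149 CPM in siControl untreated libraries. Its log2 response was -2.65 with ICRF and -0.58 in siControl, a difference of -2.07 ± 0.062 (adjusted p = 9.01e-16).

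Most luminal epithelial genes also had a lower response with ICRF. Of 20 members tested 16 (80%, beside 24% of all genes) had a lower response with ICRF and 3 a higher one, with a list median of -0.55 beside 0.02 for all genes. With ICRF 19 fell and 1 rose with progestin, and in siControl 12 fell and 4 rose. Over all genes 26.7% fell and 30.5% rose with ICRF, and 28.1% fell and 29.5% rose in siControl. KRT19, a luminal keratin, had 826 and 787 CPM in ICRF progestin against 2154 and 2188 CPM in ICRF untreated libraries, and 4084 and 4427 CPM in siControl progestin against 2190 and 2420 CPM in siControl untreated libraries, so it fell with ICRF and rose in siControl (difference -2.31 ± 0.073, adjusted p = 2.25e-13). CLDN4, a tight junction protein, did the same with a difference of -1.31. TFAP2C, a transcription factor of luminal cells, went the other way: it rose by 0.50 with ICRF and fell by 1.40 in siControl in log2 terms. The basal and myoepithelial list, by contrast, had 2 of 10 members higher (20%) and 1 lower (10%), beside 24.9% and 24% of all genes, and its higher members CDH3 and TP63 lost their calls under DESeq2. Desmosome genes had 2 of 8 higher (25%) and 3 lower (37.5%), and the first share was near that of all genes. PKP2, a plaque protein, was lower at -1.37.

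Oestrogen-responsive genes had 12 of 28 members lower (42.9%, beside 24% of all genes) and 4 higher, with a median difference of -0.17. CA12, carbonic anhydrase XII, had 654 and 676 CPM in ICRF progestin against 1100 and 1066 CPM in ICRF untreated libraries, and 1626 and 1546 CPM in siControl progestin against 813 and 812 CPM in siControl untreated libraries. GREB1, a cofactor of the oestrogen receptor, and AGR3, a secreted protein disulfide isomerase homologue, also fell with ICRF and rose in siControl, with differences of -1.45 and -1.13. STC2, a secreted glycoprotein, fell in both, with log2 responses of -2.62 with ICRF and -1.60 in siControl.

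Progestin-induced genes, a list of hormone targets known in breast cells, were raised with ICRF as well, but by less. The list was chosen with earlier results of these data known, and that choice can affect the sign of its difference. The list had 42 members tested, of which 32 rose and 4 fell with ICRF, and 32 rose and 5 fell in siControl. Over all genes 30.5% rose and 26.7% fell with ICRF, and 29.5% rose and 28.1% fell in siControl. The median response was 1.0 with ICRF and 1.56 in siControl. The difference was lower for 22 members (52.4%, beside 24% of all genes) and higher for 6. TSC22D3 (chromosome X from 107713221 to 107777342), which encodes the hormone-induced leucine zipper protein GILZ, had 79.6 and 78.8 CPM in ICRF progestin against 19.8 and 18.5 CPM in ICRF untreated libraries, and 652 and 619.8 CPM in siControl progestin against 38 and 39.5 CPM in siControl untreated libraries. It rose by 2.05 with ICRF and by 4.03 in siControl, a difference of -1.98 ± 0.067 (adjusted p = 3.6e-15).

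FKBP5 (chromosome 6 from 35573585 to 35728583), a co-chaperone of steroid receptors, had 278 and 279 CPM in ICRF progestin against 116 and 112 CPM in ICRF untreated libraries, and 526 and 501 CPM in siControl progestin against 83.6 and 79.2 CPM in siControl untreated libraries. Its untreated level was higher with ICRF and its treated level lower, and the difference was -1.37 ± 0.054 (adjusted p = 3.91e-14). DUSP1, a phosphatase that switches off MAP kinases, had 17.9 and 18.9 CPM in ICRF progestin against 9.86 and 10.7 CPM in ICRF untreated libraries, and 45.8 and 46 CPM in siControl progestin against 8.89 and 8.49 CPM in siControl untreated libraries, a difference of -1.57 ± 0.093 (adjusted p = 1.76e-11). CCND1 (cyclin D1) was raised by 0.35 with ICRF and by 0.44 in siControl, and its difference of -0.09 ± 0.061 missed the threshold (adjusted p = 0.274).

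The C/EBP family of transcription factors and their Tribbles partners had 6 of 9 members lower (66.7%, beside 24% of all genes), and the other 3 were not called. CEBPA, whose product C/EBP alpha restrains growth, had 89.7 and 87.3 CPM in ICRF progestin against 38.1 and 38.3 CPM in ICRF untreated libraries, and 207 and 204 CPM in siControl progestin against 47.8 and 54.4 CPM in siControl untreated libraries. Progestin raised it in both, and the difference was -0.79 ± 0.081 (adjusted p = 1.05e-07). CEBPB and TRIB1 rose in siControl by 0.88 and 0.48 and were not called with ICRF (0.17 and -0.03). TRIB3, a Tribbles gene of the stress response, fell by 0.69 with ICRF and was not called in siControl.

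Genes for making and taking up cholesterol mostly rose with progestin in siControl, while with ICRF about as many fell as rose. Of 23 tested, 19 (82.6%, beside 24% of all genes) had a lower response with ICRF and 1 a higher one. The median difference was -0.48. In siControl 17 rose and 4 fell, with a median of 0.43, while 29.5% of all genes rose and 28.1% fell. With ICRF 8 rose and 7 fell, shares near the 30.5% and 26.7% of all genes, with a median of -0.03. SQLE, squalene epoxidase, had 169 and 171 CPM in ICRF progestin against 175 and 181 CPM in ICRF untreated libraries, and 403 and 407 CPM in siControl progestin against 167 and 159.5 CPM in siControl untreated libraries, with a difference of -1.38 ± 0.057 (adjusted p = 8.69e-14). Its response with ICRF was not called (-0.07). DHCR7, the last enzyme of one branch of cholesterol synthesis, rose in both, by 0.62 with ICRF and by 1.64 in siControl.

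Fatty acid synthesis and fat storage genes had 12 of 21 members lower (57.1%, beside 24% of all genes) and 4 higher, with a median difference of -0.31. SREBF1, the transcription factor that drives this programme and one of the genes chosen after their values were seen, fell by 0.62 with ICRF and rose by 2.00 in siControl, with 95.4 and 91.1 CPM in ICRF progestin against 144 and 143 CPM in ICRF untreated libraries and 625 and 615 CPM in siControl progestin against 147 and 163 CPM in siControl untreated libraries (difference -2.62 ± 0.09, adjusted p = 1.67e-11). ACACA, acetyl-CoA carboxylase, had 290.5 and 294 CPM in ICRF progestin against 392 and 379.8 CPM in ICRF untreated libraries, and 616 and 598 CPM in siControl progestin against 326 and 313 CPM in siControl untreated libraries. SCD, which desaturates fatty acids, and ACLY, which makes cytosolic acetyl-CoA, had differences of -1.28 and -0.83. These 3 enzymes rose in siControl, and ACACA and ACLY fell with ICRF. GPAM, the acyltransferase that begins triglyceride synthesis, went the other way, with 102 and 99.1 CPM in ICRF progestin against 41.7 and 40.6 CPM in ICRF untreated libraries, and 25.4 and 25.6 CPM in siControl progestin against 39.5 and 36.1 CPM in siControl untreated libraries (difference 1.85 ± 0.084, adjusted p = 3.21e-13).

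Glycolysis and hypoxia genes had 16 of 26 members lower (61.5%, beside 24% of all genes) and 5 higher, with a median difference of -0.41. HK1, a hexokinase, fell by 0.49 with ICRF and rose by 1.03 in siControl. PFKFB3, which makes the activator of phosphofructokinase, rose strongly in both, to 324 and 325 CPM in ICRF progestin against 67.5 and 63.7 CPM in ICRF untreated libraries, and to 1451 and 1462 CPM in siControl progestin against 145 and 149 CPM in siControl untreated libraries (log2 responses 2.31 and 3.31, adjusted p 1.92e-12 for the difference). The 2 aldolases differed from each other: ALDOA had a difference of -1.18, while ALDOC had one of 1.63. Genes of epithelial sodium transport, a programme of steroid hormones, had 6 of 14 lower (42.9%, beside 24% of all genes) and 2 higher. NEDD4L, a ubiquitin ligase that spans 357 kb, fell by 0.76 with ICRF and rose by 1.02 in siControl.

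Ribosome biogenesis genes, many of them targets of MYC, were the list with the largest share of lower members. It was 21 of 23 (91.3%, beside 24% of all genes), and the other 2 were not called. The median response was -0.35 with ICRF and 0.25 in siControl, and the median difference was -0.57. Of the 23 members, 17 fell and 1 rose with ICRF, 18 rose and 2 fell in siControl, and 13 were called in opposite directions. Of all 19003 genes tested, 987 fell with ICRF and rose in siControl, and 1094 did the reverse. Over all genes 26.7% fell and 30.5% rose with ICRF, and 29.5% rose and 28.1% fell in siControl. NOP16, a nucleolar factor, had 27.9 and 28.6 CPM in ICRF progestin against 35.6 and 36.4 CPM in ICRF untreated libraries, and 88.8 and 85.1 CPM in siControl progestin against 45.7 and 48.4 CPM in siControl untreated libraries (difference -1.24 ± 0.068, adjusted p = 4.86e-12). MRTO4, whose promoter is shown above, had 55.3 and 54.7 CPM in ICRF progestin against 75.6 and 75.8 CPM in ICRF untreated libraries, and 115 and 116 CPM in siControl progestin against 91 and 85.2 CPM in siControl untreated libraries. In both genes neither pair of groups overlapped and the directions were opposite. GNL3, the nucleolar protein nucleostemin, and DKC1, a pseudouridine synthase, had differences of -0.84 and -0.65.

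**Figure D3:**
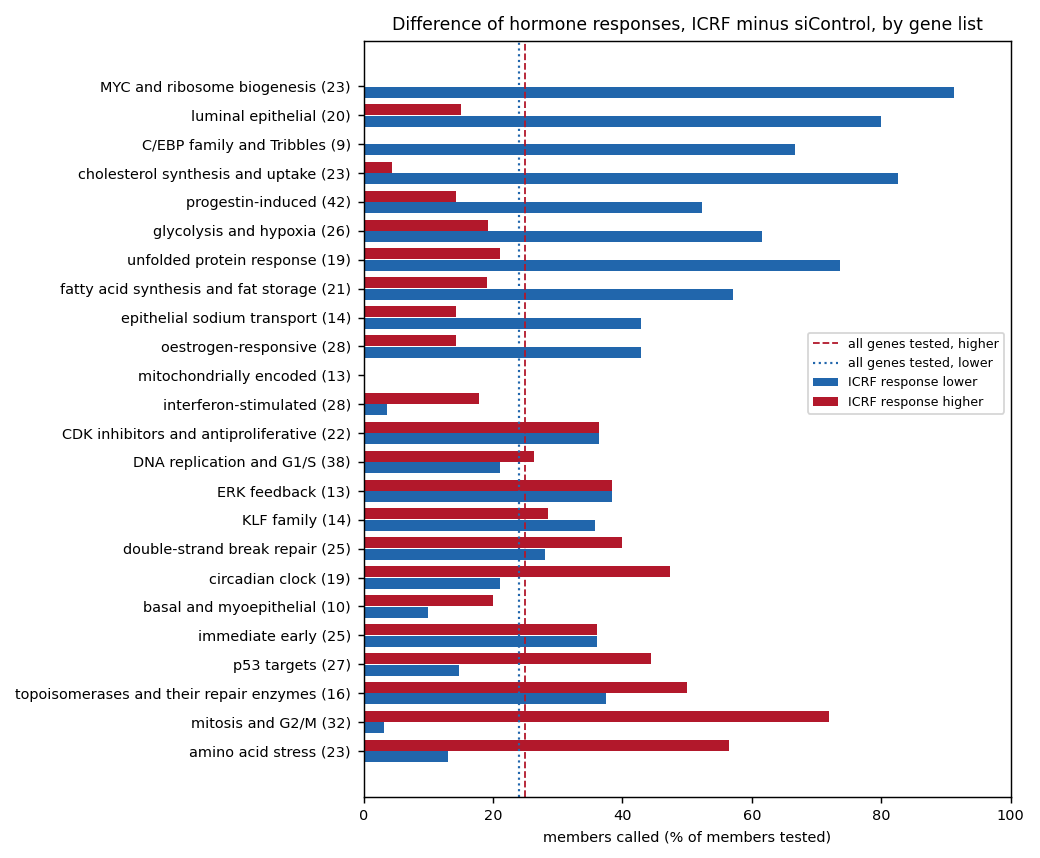
Share of the members tested whose response was higher with ICRF (red bars) or lower with ICRF (blue bars), for the 24 lists with at least 9 members tested, with the number tested in brackets; dashed red and dotted blue lines mark the shares over all genes tested, 24.9% and 24%. Ribosome biogenesis, cholesterol and luminal genes were mostly lower, and mitotic and amino acid stress genes mostly higher.

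Of 2 lists of stress genes, most members of one were lower and most of the other higher. Unfolded protein response genes had 14 of 19 members (73.7%, beside 24% of all genes) lower and 4 higher. Their median response was 0.18 with ICRF and 0.48 in siControl. SYVN1, a ubiquitin ligase for misfolded proteins, had 77.1 and 73.6 CPM in ICRF progestin against 52.5 and 52.8 CPM in ICRF untreated libraries, and 255 and 253 CPM in siControl progestin against 72.9 and 78.2 CPM in siControl untreated libraries. It rose in both, with a difference of -1.23 ± 0.068 (adjusted p = 6.32e-12). PDIA6, whose promoter is shown above, rose by 0.48 in siControl and was not called with ICRF (0.05). MANF, a secreted protein of the endoplasmic reticulum, and DNAJC3, a co-chaperone, rose in both, with differences of -0.63 and -0.53.

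Amino acid stress genes, which ATF4 controls, had 13 of 23 members (56.5%, beside 24.9% of all genes) higher and 3 lower, and their median response was 0.17 with ICRF and -0.34 in siControl. Progestin raised 11 and lowered 4 with ICRF, and raised 4 and lowered 15 in siControl. Over all genes it raised 30.5% and lowered 26.7% with ICRF, and raised 29.5% and lowered 28.1% in siControl. PSAT1, an enzyme of serine synthesis, had 149 and 141 CPM in ICRF progestin against 71.3 and 67.8 CPM in ICRF untreated libraries, and 76.9 and 78.6 CPM in siControl progestin against 119 and 124 CPM in siControl untreated libraries (difference 1.71 ± 0.061, adjusted p = 9.28e-15). GARS1 had 579.6 and 567 CPM in ICRF progestin against 424 and 416 CPM in ICRF untreated libraries, and 559.8 and 551 CPM in siControl progestin against 668 and 711 CPM in siControl untreated libraries. CARS1, the synthetase for cysteine, rose by 0.66 with ICRF and fell by 0.39 in siControl in log2 terms. In PSAT1, GARS1 and CARS1 the untreated level was lower with ICRF than in siControl.

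Mitosis and G2/M genes fell with progestin in siControl and did not do so as a group with ICRF. Of 32 members tested, 30 fell and the other 2 were not called in siControl, where 28.1% of all genes fell. With ICRF 11 fell and 10 rose, shares not far from the 26.7% and 30.5% of all genes. The difference was higher for 23 (71.9%, beside 24.9% of all genes) and lower for 1, with a median of 0.36. CDK1 had 560.2 and 565 CPM in ICRF progestin against 391 and 389 CPM in ICRF untreated libraries, and 166 and 168 CPM in siControl progestin against 221 and 199 CPM in siControl untreated libraries (difference 0.86 ± 0.064, adjusted p = 7.13e-10). NEK2, a centrosome kinase, had 250 and 261 CPM in ICRF progestin against 204 and 200 CPM in ICRF untreated libraries, and 75.5 and 76.2 CPM in siControl progestin against 111 and 104 CPM in siControl untreated libraries. Both genes were higher in every ICRF library than in any siControl library. AURKA, the spindle kinase Aurora A, and KIF2C, a kinesin that shortens microtubules, had differences of 0.70 and 0.77.

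DNA replication and G1/S genes were split, with 10 of 38 higher (26.3%) and 8 lower (21.1%), shares near those of all genes, and with 16 higher and 5 lower when library totals alone were the scale. GINS2, a subunit of the replicative helicase, rose by 1.33 in siControl and was not called with ICRF (-0.09), whereas E2F1, a transcription factor of S phase entry, rose by 0.28 with ICRF and fell by 0.80 in siControl in log2 terms. GINS3, another subunit of the same complex, fell by 1.07 in siControl and was not called with ICRF (-0.05). POLE, a replicative DNA polymerase, fell by 0.45 with ICRF and was not called in siControl (-0.04).

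TOP2A had the higher level with ICRF in both states, 1528 and 1597 CPM in ICRF progestin against 1247 and 1225 CPM in ICRF untreated libraries, and 447 and 457 CPM in siControl progestin against 697 and 625 CPM in siControl untreated libraries. It rose by 0.34 with ICRF and fell by 0.55 in siControl, a difference of 0.88 ± 0.077 (adjusted p = 1.25e-07). TOP2B had 206 and 212 CPM in ICRF progestin against 233 and 238 CPM in ICRF untreated libraries, and 161 and 169.8 CPM in siControl progestin against 172 and 163 CPM in siControl untreated libraries, and its difference of -0.15 ± 0.063 (adjusted p = 0.0479) lost its call with upper quartile factors (adjusted p = 0.166). Topoisomerases and the enzymes that repair their lesions had 8 of 16 members higher (50%, beside 24.9% of all genes) and 6 lower (37.5%, beside 24%). RBBP8, which encodes the end-resection factor CtIP, fell in both, with log2 responses of -0.73 with ICRF and -1.96 in siControl, while RMI1, a partner of topoisomerase III, rose by 0.33 with ICRF and fell by 0.91 in siControl. NBN, a sensor of double-strand breaks, fell by 0.72 in siControl and was not called with ICRF.

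Double-strand break repair genes had 10 of 25 members higher (40%, beside 24.9% of all genes) and 7 lower (28%, near the 24% of all genes). BRCA2, a factor of homologous recombination, had 47.7 and 49.3 CPM in ICRF progestin against 36.1 and 34.6 CPM in ICRF untreated libraries, and 13.2 and 14.8 CPM in siControl progestin against 29.7 and 24.4 CPM in siControl untreated libraries (difference 1.40 ± 0.11, adjusted p = 6.39e-09). TP53BP1 and PRKDC, of the end-joining route, fell with ICRF, with log2 responses of -0.63 and -0.47, whereas LIG4, the ligase of that route, rose by 0.47. Targets of p53 had 12 of 27 members higher (44.4%, beside 24.9% of all genes), 4 lower (14.8%, beside 24%) and 11 not called. TP53INP1, a stress-induced partner of p53, had 106 and 116 CPM in ICRF progestin against 56.4 and 54.7 CPM in ICRF untreated libraries, and 39 and 37.1 CPM in siControl progestin against 60.7 and 60.1 CPM in siControl untreated libraries (difference 1.67 ± 0.078, adjusted p = 4.8e-13). SESN1, a sestrin, did likewise with a difference of 1.42. CDKN1A, the p53 target and inhibitor p21, rose by 0.45 in siControl and was not called with ICRF (0.07), which made it 1 of the 4 lower members. AEN, an exonuclease, was another, at -0.77.

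Among the CDK inhibitors and antiproliferative genes 8 of 22 were higher and 8 lower (36.4% each, beside 24.9% and 24% of all genes). GADD45B, a stress protein, rose by 0.23 with ICRF and by 1.31 in siControl. BTG1, an antiproliferative factor, and RBL1, which encodes the retinoblastoma-like protein p107, fell in siControl, with log2 responses of -1.10 and -0.97, and were not called with ICRF. TXNIP, which restrains glucose uptake, fell in both, with log2 responses of -0.28 with ICRF and -1.29 in siControl.

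Immediate early genes and ERK feedback genes had members on both sides, 9 higher and 9 lower of 25 (36% each), and 5 higher and 5 lower of 13 (38.5% each), beside 24.9% and 24% of all genes. Several that fell in siControl had a low untreated level with ICRF. SPRY1, an inhibitor of growth factor signalling, had 4.56 and 4.19 CPM in ICRF progestin against 5.29 and 4.79 CPM in ICRF untreated libraries, and 9.65 and 9.34 CPM in siControl progestin against 36.7 and 36.5 CPM in siControl untreated libraries. PHLDA1, an early gene of growth factor signalling, had 15.1 and 16.6 CPM in ICRF progestin against 20.5 and 20.6 CPM in ICRF untreated libraries, and 27.8 and 28.4 CPM in siControl progestin against 103 and 101 CPM in siControl untreated libraries. Their differences were 1.74 and 1.48, with the siControl untreated libraries as the group that stood apart. DUSP6, a phosphatase for ERK, fell in both, with log2 responses of -1.66 with ICRF and -3.20 in siControl. NR4A1, an orphan nuclear receptor, fell by 2.00 in siControl and was not called with ICRF, whereas SPRED2, another inhibitor of the pathway, fell by 1.21 with ICRF and rose by 0.30 in siControl. IER5, an early gene, rose by 0.43 with ICRF and by 1.54 in siControl.

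KLF genes had 4 of 14 members higher (28.6%) and 5 lower (35.7%), not far from the 24.9% and 24% of all genes. KLF15, a transcription factor that glucocorticoids and progestins raise, had 3.76 and 3.23 CPM in ICRF progestin against 0.827 and 0.731 CPM in ICRF untreated libraries, and 16.3 and 14.4 CPM in siControl progestin against 0.891 and 0.851 CPM in siControl untreated libraries (difference -1.98 ± 0.20, adjusted p = 5.52e-08). KLF4 also rose in both, by 1.02 with ICRF and by 1.68 in siControl. Clock genes had 9 of 19 higher (47.4%, beside 24.9% of all genes) and 4 lower (21.1%, near the 24% of all genes). NR1D2, the repressor REV-ERB beta, had 140.1 and 147 CPM in ICRF progestin against 116 and 116 CPM in ICRF untreated libraries, and 27.3 and 27.6 CPM in siControl progestin against 94.9 and 92.1 CPM in siControl untreated libraries. It rose a little with ICRF and fell in siControl, with a difference of 2.08 ± 0.069 (adjusted p = 3.28e-15). Interferon-stimulated genes were mostly not called, with 5 of 28 higher (17.9%, beside 24.9% of all genes) and 1 lower (3.57%, beside 24%). STAT2, a signal transducer of interferon, rose by 0.45 with ICRF and fell by 0.84 in siControl in log2 terms. Of 13 mitochondrially encoded genes and of the 8 fibroblast, endothelial and blood genes tested 0 were called in either direction by edgeR, with 2 and 1 at an unadjusted p under 0.05. By DESeq2 2 mitochondrially encoded genes were lower and 1 of the other list was higher.

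Gene span, from the first to the last annotated base, was examined because topoisomerases relieve the twisting of transcribed DNA, and long genes are known to depend on them in other cells. Over all genes tested the class medians lay between -0.09 and 0.10, and with genes of at least 5 CPM alone the longest class stood lower. The median difference was -0.04 for 6048 genes under 10 kb, 0.05 for 4682 genes of 10 to 30 kb, 0.10 for 5224 genes of 30 to 100 kb, -0.07 for 2446 genes of 100 to 300 kb and -0.09 for 603 genes of 300 kb or more. The share of genes called lower was 18.0% in the shortest class, 34.9% at 100 to 300 kb and 33.3% in the longest, while the share called higher was 14.0%, 24.8% and 15.6%. The median level in the shortest class was 0.924 CPM, not scaled by length, and the part of low counts in these shares was not tested. With genes of at least 5 CPM alone the medians were -0.10, 0.02, 0.06, -0.14 and -0.26 from the shortest to the longest class. In that set 52.8% of genes of 300 kb or more were lower and 15.7% higher, while 31.2% of genes of 30 to 100 kb were lower.

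Genes were also divided by the direction of the hormone response. They were sorted by their hormone response in the siCEBPA libraries, which carry an siRNA against CEBPA, share the arrest and time labels of siControl and enter neither response compared. In them CEBPA had 55.9 and 60.5 CPM of the library total with progestin and 11.7 and 13.3 CPM untreated, each below the siControl libraries of the same state (187 and 186 CPM with progestin, 48.9 and 55.1 CPM untreated). With progestin 10889 genes changed in them (57.3%), of which 5683 rose (29.9%) and 5206 fell (27.4%). Because these cells resemble siControl in their labels, the sort itself can set the sign of the difference. It can also affect the order of the span classes, which is described here without a test. The median difference was -0.40 for siCEBPA responses of 0.5 to 1 and -0.83 above 2. It was 0.38 for siCEBPA responses of -1 to -0.5 and 0.81 at -2 or lower. Among genes that rose in siCEBPA, the median difference was -0.33 under 10 kb, -0.25 at 10 to 30 kb, -0.25 at 30 to 100 kb, -0.45 at 100 to 300 kb and -0.67 at 300 kb or more. The lower calls made up 52.5%, 51.1%, 51.6%, 64.6% and 71.5% of these classes. In the longest class, of 172 genes, the median response was 0.06 with ICRF and 0.69 in siControl, against 0.30 and 0.47 at 30 to 100 kb. Among genes that fell in siCEBPA the median difference was 0.32, 0.40, 0.45, 0.30 and 0.14 from the shortest to the longest class. With genes of at least 5 CPM alone, the median difference of rising genes was -0.29 under 10 kb and -0.65 at 300 kb or more, and that of falling genes 0.22 and 0.04. Sorting instead by the ICRF replicate 1 libraries (log2 response above 0.5, or -0.5 or lower), a choice added after the data were seen, with values from replicate 2, turned every sign. Rising genes then had median differences of 0.41, 0.53, 0.54, 0.44 and 0.34 from the shortest to the longest class, and falling genes -0.28, -0.30, -0.30, -0.33 and -0.20. In rising genes the signed difference was lowest in the longest class with either sort. With siControl replicate 1 as the sort it was lowest there too, at -0.75. The size of the gap in that class was the smallest with the ICRF sort and the widest with the siCEBPA sort. In falling genes the longest class had the lowest value with the siCEBPA sort (0.14) and the highest with the ICRF sort (-0.20). Genes are not replicates, so no test was made. Ranked by exonic length in place of span, the class medians over all genes lay between -0.06 and 0.05.

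**Figure D4:**
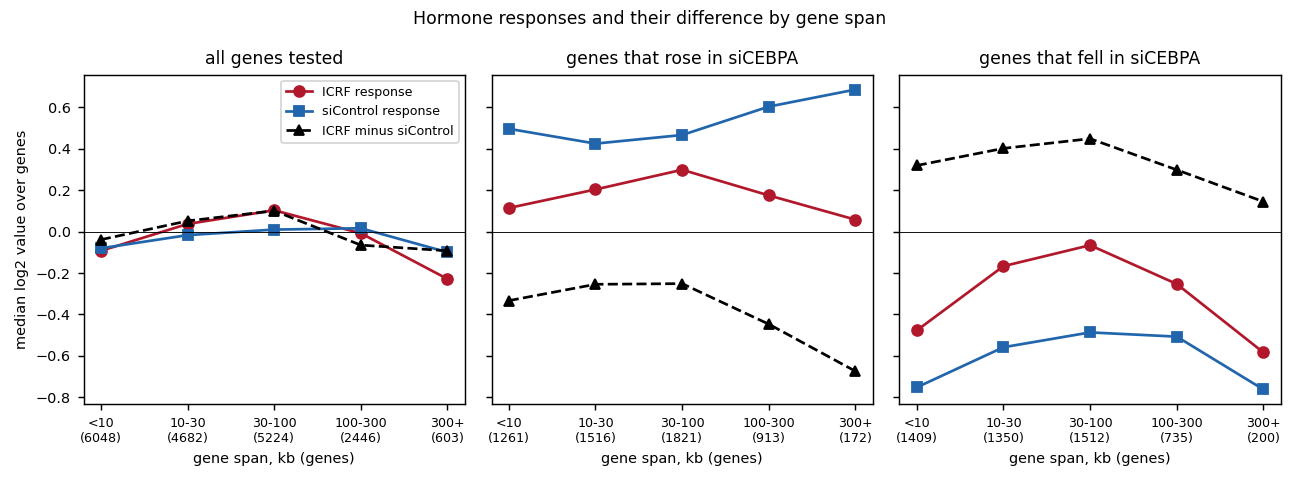
Median log2 hormone response with ICRF (red), in siControl (blue) and their difference (black dashes) over genes in 5 classes of gene span, with the number of genes in brackets, for all genes tested and for genes that rose or fell with progestin in the siCEBPA libraries. Among genes that rose, the median difference was -0.67 at 300 kb or more and -0.25 at 30 to 100 kb, and with the ICRF replicate 1 libraries as the sort it was 0.34 and 0.54.

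Induction strength was described in the same way. Genes were put in 7 classes by their log2 response in siCEBPA. In the class above 2, of 633 genes, the median response was 1.77 with ICRF and 2.48 in siControl, with a median difference of -0.83. Between 1 and 2 it was 0.48 with ICRF and 1.21 in siControl. At -2 or lower, in 415 genes, it was -1.24 with ICRF and -2.06 in siControl, with a median difference of 0.81. The middle class, between -0.5 and 0.5, had a median difference of 0.01. Both rises and falls found in siCEBPA were thus smaller in the median with ICRF than in siControl. The median level was 0.205 CPM at -2 or lower, 0.507 CPM above 2 and 24.1 CPM in the middle class. The part of low counts in these medians was not tested.

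The direction of this relation depended on which cells chose the classes. When the siControl replicate 1 libraries set the classes and only replicate 2 libraries gave the values, genes above 2 had a median response of 1.39 with ICRF and 2.41 in siControl. When the ICRF replicate 1 libraries set the classes, genes above 2 had a median of 2.38 with ICRF and 1.56 in siControl, and genes at -2 or lower -2.05 with ICRF and -1.58 in siControl. In these medians strongly responding genes of either cell state therefore responded less in the other, and the classes give no single order of the 2 responses. The part of low counts in this was not tested. The counts of called genes were also close, 10880 with ICRF (57.3%) and 10954 in siControl (57.6%), while 2613 with ICRF (13.8%) and 3049 in siControl (16%) were at least 2-fold.

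**Figure D5:**
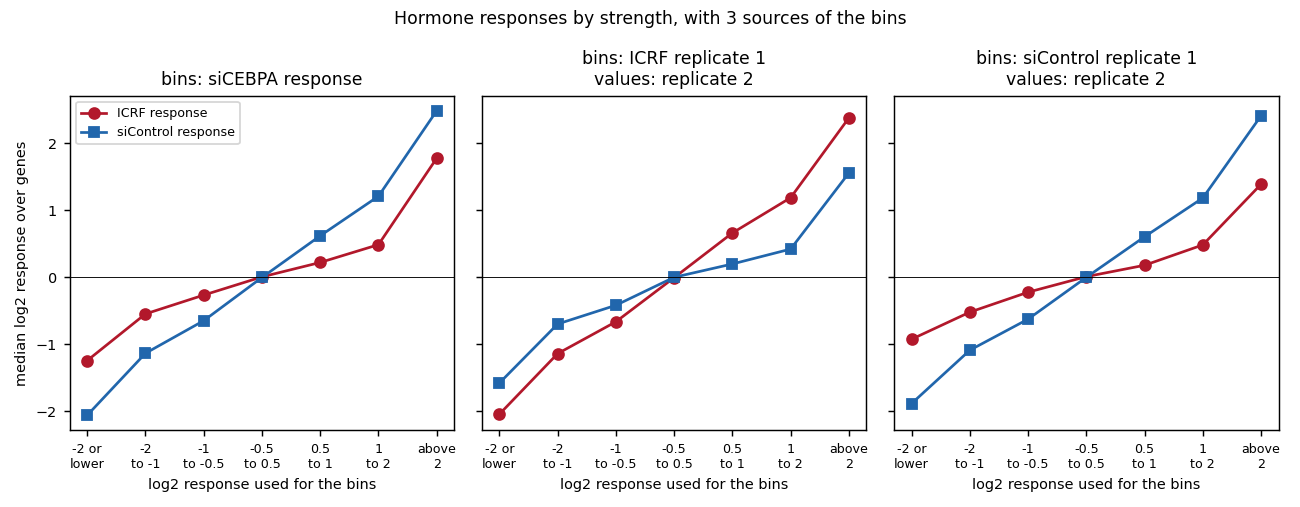
Median log2 hormone response with ICRF (red) and in siControl (blue) over genes in 7 classes of response strength, with the classes set by the siCEBPA libraries, by ICRF replicate 1 or by siControl replicate 1. The 2 lines cross between the first and the second choice: above 2 the ICRF median was 1.77 against 2.48 with siCEBPA classes, and 2.38 against 1.56 with ICRF classes.

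By gene type in RefSeq, 14052 protein-coding genes had 29.0% higher and 29.3% lower, with a median difference of 0.0030. Long noncoding RNA genes, 1506 in number, had a median difference of 0.15, with 18.1% higher and 10.5% lower. Their median response was -0.26 with ICRF and -0.45 in siControl. Their median level was 0.529 CPM, against 25.7 CPM for protein-coding genes, and the part of low counts was not tested. Over all genes tested the Spearman correlation of the difference was -0.14 with mean CPM and 0.01 with gene span.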

How the data were processed

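The deposited values were raw counts of read pairs per gene, counted against GENCODE 24 by featureCounts 1.5.1 (paired ends, reverse strand) from STAR output on hg38, per the file headers, where the assembly folder is called hg38_mmtv. Multi-mapping reads were not asked for in the recorded command, which leaves genes with close copies uncertain. Trimmomatic and STAR are listed in the submitters' processing notes, versions not given in the sources used here. A file has 60554 genes, and 56558 could be given a symbol.

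One model of all 12 RNA libraries (6 groups of 2, 6 residual degrees of freedom, biological coefficient of variation 0.0464) was fitted to the 19003 genes that passed filterByExpr, with edgeR 4.0.16 in R 4.3.3, TMM factors, the robust quasi-likelihood test and Benjamini-Hochberg adjustment over all genes. A standard error is the log2 value over the square root of F. CPM are TMM-scaled unless given of the library total. DESeq2 1.42.0 was an alternative. The steps were tested on simulated data. Library totals were 62666783 to 148624099, and replicates correlated at 0.992 to 0.994 (Pearson, log2 CPM over genes) in the 4 groups.

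Genes named were the 12 largest positive and 12 largest negative called differences with a usual symbol and at least 5 CPM in 1 group, the 4 members of each of 26 lists lowest in p, plus FKBP5, TSC22D3, CCND1, CDKN1A, PGR, CEBPA, TOP2A and TOP2B; the text names some of them. Lists, members and motifs were chosen with earlier results of these data known. The 18 ChIP samples were not analysed here.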

Additional observations from a re-analysis of the deposited data

Results flagged for a closer look

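The 2 cell states differed in hormone response, by the test of the difference itself, for 4729 genes with a higher and 4564 genes with a lower response with ICRF. Among the 24 genes with the largest differences, 15 were called in opposite directions in ICRF and siControl cells and in the difference. Those that rose with ICRF and fell in siControl were ZNF365 (difference 3.46), SP4 (3.10), PGM2L1 (3.00), ZC3H6 (2.97), TENT5C (2.89), SLC7A11 (2.70), ULBP1 (2.66), AREG (2.64), LIPT2-AS1 (2.56), PTGER4 (2.48) and RASL11B (2.48). Those that fell with ICRF and rose in siControl were NYNRIN (-3.31), TNS3 (-3.14), TBX1 (-3.12) and S1PR5 (-3.07). Each group had 2 libraries, so no single library could be compared with the rest of its group. ICRF, siRNA, arrest and time cannot be told apart in these differences.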

How the results depend on the processing

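Settings tried were DESeq2, upper quartile factors, library totals alone, no filter on low counts, a mean of at least 1 CPM, only the 8 libraries, each library left out in turn and a replicate block, 16 in all. Under them the 6 counts of genes past the threshold stayed within 1.5 times, as did the counts in 1 direction of 10 lists chosen for this check. These were the progestin-induced, luminal, cholesterol, fatty acid, glycolysis, ribosome, unfolded protein response, amino acid stress, mitotic and p53 lists. The statement does not cover the other lists, of which DNA replication genes moved by more with library totals alone. Leaving out 1 library gave 3889 to 4495 genes higher and 4089 to 4757 lower. Of 119 named genes called, 114 were called in every setting, 5 (CDH3, IRF7, IRF9, TOP2B and TP63) missed the threshold in at least 1, and no named gene changed its sign with a call. Over these settings the shared calls of the difference had the same sign.

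Medians by span and strength, here relative to the median of all genes, changed by more than the spread between replicates in several settings, with the values given below. Medians of genes divided by direction and span are not relative to all genes. Ranked by exonic length, genes of 30 to 100 kb came to 0.03 and those of 100 to 300 kb to 0.00. For genes of 300 kb or more the median was -0.11, and -0.19 with at least 1 CPM and -0.23 with at least 5 CPM. With at least 1 CPM the 7 strength classes had 0.93, 0.68, 0.43, 0.01, -0.43, -0.77 and -0.98 from the lowest to the highest. With classes from ICRF replicate 1 they had -0.41, -0.42, -0.26, -0.03, 0.41, 0.63 and 0.81, so every class but the middle reversed, and with classes from siControl replicate 1 the class of 1 to 2 had -0.69. Genes divided by direction and span followed the sort too, in settings added after the data were seen. With direction from ICRF replicate 1 all 10 medians reversed, rising genes having 0.41, 0.53, 0.54, 0.44 and 0.34 from the shortest class and falling genes -0.28, -0.30, -0.30, -0.33 and -0.20. With direction from siControl replicate 1 rising genes under 300 kb had -0.52, -0.50, -0.43 and -0.62, and falling genes of 10 to 300 kb 0.51, 0.62 and 0.52. With at least 5 CPM rising genes of 100 to 300 kb had -0.42, and falling genes 0.22 under 10 kb, 0.40 at 30 to 100 kb and 0.22 at 100 to 300 kb. The cause was not tested. Without 1 library the lowest class ran from 0.69 to 0.91, the middle from -0.02 to 0.00 and the highest from -1.02 to -0.75.

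Replicate numbers did not pair the libraries: the correlation of replicate 1 minus replicate 2 between groups ran from -0.36 to 0.12. With a replicate block over all libraries 4826 genes were higher and 4677 lower, and with a block within ICRF and siRNA libraries 4957 and 4876. With 2 libraries a group, low genes limit what can be called.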
